A study of Mus musculus with 9 samples.

Results

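Solute carriers are the membrane proteins that move amino acids, sugars, ions, metals, vitamins and metabolites into and out of cells and organelles, and their genes carry symbols of the form Slc, a family number and a member number. The genes described here are the rows of the count table with such a symbol, pseudogenes left out, whose mean level over the 9 libraries was at least 1 CPM (the count scaled to the library total). The table held 376 carrier rows among 45361 genes, and 182 of them met this level. Another 131 carrier rows had counts but lay under it, and 63 had 0 counts in all libraries. Just inside the limit were Slc25a35 at 1.03, Slc15a1 at 1.07 and Slc52a3 at 1.10 CPM, and just outside it Slc25a43 at 0.969, Slc1a1 at 0.883 and Slc1a2 at 0.794 CPM. In 4 of the 182 genes (Slc15a1, Slc52a3, Slc14a1 and Slc22a18) the DMSO mean was under 1 CPM, so they reached the limit through the inhibitor libraries. Another 4 (Slc9a3r1, Slc9a3r2, Slc4a1ap and Slc7a6os) are named after a carrier and are not transporters.

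The cells were CH12F3, a mouse B-lymphoma line used to study class switching, and all of them were knocked out for Ligase4, a DNA end-joining enzyme. For 24 h all groups also received TGF-β, IL-4 and an antibody against CD40. The solvent DMSO was given in 3 libraries, and 3 were made with tazemetostat, an inhibitor of the histone H3K27 methyltransferase EZH2, and another 3 with valemetostat, which inhibits EZH1 and EZH2. The sources used here do not say at which dose or for how long the inhibitors were given, how many knockout clones there were or whether replicates were separate cultures. The p-values therefore rest on variation among libraries that could be technical.

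A B cell that is activated by CD40 and cytokines takes up more amino acids, glucose and iron as it grows and divides. The heterodimer of SLC7A5 and SLC3A2 brings leucine and other large neutral amino acids into the cell, SLC1A5 and SLC38A2 bring glutamine and alanine, and intracellular amino acids in turn activate the growth kinase complex mTORC1. EZH2 places the repressive mark H3K27me3, so genes under this mark can gain transcripts when the enzyme is inhibited.

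Library totals ran from 34080504 to 46675110 counts, and the carriers took 1.07 to 1.14% of them. All 8 B cell marker genes were measured, with a summed level of 3038 to 3327 CPM in DMSO and 3554 to 3780 CPM with the inhibitors. T cell markers summed to 1.10 to 1.45 CPM in DMSO and 1.66 to 2.23 CPM with the inhibitors (1 of 6 at 0 counts). Myeloid markers summed to 27.6 to 33.7 CPM over all groups (0 of 6 at 0). This sum hides opposite changes of single markers. Log2 changes of the 4 tested ran from -0.41 to 5.56 with tazemetostat and from -0.46 to 5.53 with valemetostat. Stromal markers summed to 0.0841 to 0.203 CPM in DMSO and 0.261 to 0.609 CPM with the inhibitors (1 of 5 at 0). Erythroid markers summed to 4.41 to 5.69 CPM with DMSO and to 7.37 to 8.94 CPM with the inhibitors. The part of other cell types in the results was not tested, and in such bulk samples fewer cells of a type and less RNA per cell cannot be told apart. The groups also differed in how deviations ran with transcript length. Spearman's rho between a library's deviation from the mean and relative transcript length used genes at a mean log2 CPM of at least 3. It was 0.20 to 0.51 in the DMSO libraries, -0.46 to -0.01 with tazemetostat and -0.47 to -0.23 with valemetostat.

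Some carriers stand out by the size of their change, and the sequence before the start of 4 of them is shown to let their composition be compared, with each CG dinucleotide, the site of DNA methylation, in capitals. The sequences are the 250 bases before the annotated start, 5′ to 3′ on the gene's strand, from RefSeq on GRCm38.p6. Slc39a8 (chr3:135825029-135825278, plus strand) and Slc1a3 (chr15:8710808-8711057, minus strand) were higher with the inhibitors, and Slc11a1 (chr1:74374953-74375202, plus strand) and Slc38a7 (chr8:95853492-95853741, minus strand) were lower.
Slc39a8: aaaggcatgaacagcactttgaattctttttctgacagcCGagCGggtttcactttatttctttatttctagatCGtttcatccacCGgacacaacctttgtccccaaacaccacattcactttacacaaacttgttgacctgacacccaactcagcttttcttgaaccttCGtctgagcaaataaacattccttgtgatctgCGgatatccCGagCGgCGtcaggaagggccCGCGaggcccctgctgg
Slc1a3: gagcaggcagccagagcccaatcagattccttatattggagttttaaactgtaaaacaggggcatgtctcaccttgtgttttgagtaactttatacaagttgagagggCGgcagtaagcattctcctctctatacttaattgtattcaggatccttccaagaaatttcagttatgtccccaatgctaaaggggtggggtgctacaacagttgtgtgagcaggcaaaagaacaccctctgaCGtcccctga
Slc11a1: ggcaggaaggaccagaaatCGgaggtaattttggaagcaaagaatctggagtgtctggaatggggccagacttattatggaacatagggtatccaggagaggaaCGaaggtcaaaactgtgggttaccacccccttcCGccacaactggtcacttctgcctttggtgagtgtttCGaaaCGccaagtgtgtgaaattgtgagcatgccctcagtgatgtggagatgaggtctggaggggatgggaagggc
Slc38a7: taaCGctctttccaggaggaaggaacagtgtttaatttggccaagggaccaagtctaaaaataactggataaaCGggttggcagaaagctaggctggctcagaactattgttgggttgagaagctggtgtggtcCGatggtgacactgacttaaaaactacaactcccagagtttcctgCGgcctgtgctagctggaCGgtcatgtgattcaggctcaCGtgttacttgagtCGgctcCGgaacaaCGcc
The windows hold 11, 2, 5 and 9 CG dinucleotides in this order, and for Slc39a8 the table lists another start nearby, whose window holds 9. The promoter table matched 139 of the 182 genes, 104 of them with a single start. Over these 104 the median was 16 CG dinucleotides, against 5 over the 22862 genes of any kind with a single start. The larger set was not limited by level, so this and the motif shares below compare unlike sets. The median was 13.5 in the 16 carriers called higher with tazemetostat and 19.5 in the 20 called lower, and 12 in 19 and 18 in 19 with valemetostat. The E-box CACGTG, which reads the same on both strands and contains a CG dinucleotide, was present in 12.5% of the 104 windows and in 5.92% of all 22862. Among the carriers called higher it was in 0 of 16 with tazemetostat and 0 of 19 with valemetostat, among those called lower in 4 of 20 and 4 of 19, and among those not called in 13.2% and 13.6%. Counting any start of the 139 matched carriers, it was in 2 of 23 called higher with tazemetostat, the other window of Slc39a8 among them, in 6 of 27 called lower and in 14 of 89 not called. With valemetostat these counts were 3 of 29, 6 of 27 and 13 of 83. The form TGATGNAA of the amino acid response element, searched on both strands, was in 2.88% of the carrier windows and 3.63% of all, and in 0 of the 15 amino acid and peptide carriers with a single start. Slc7a7, an amino acid carrier with several starts and so not among these 15, held it in some of its windows. These are counts of letters in a window and say nothing of a factor's binding.

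In DMSO cells the carriers of the mitochondrial inner membrane dominated. Levels between genes are compared in TPM (a transcript share that corrects for transcript length), taken from the deposited log2 values. The 35 members of the mitochondrial family summed to 2714 ± 37.3 TPM in DMSO (SD, n = 3), which was 40.5% of all carrier TPM, and the 27 carriers of amino acids and peptides to 1632 ± 72.4 TPM, or 24.4%. Over all 9 libraries the highest mean levels were those of the ADP/ATP carrier Slc25a5 at 931 TPM, the mitochondrial phosphate carrier Slc25a3 at 655, the amino acid carrier heavy chain Slc3a2 at 309, the ADP/ATP carrier Slc25a4 at 285 and the leucine carrier Slc7a5 at 264 TPM. In the glucose carrier family Slc2a6, a largely lysosomal member, was at 97.5, Slc2a3 at 69.2 and Slc2a1 at 57.1 TPM, and the lactate and pyruvate carrier Slc16a1 was at 75.6 TPM. The cystine carrier Slc7a11 had 0 counts in all libraries and the lactate exporter Slc16a3 a mean of 0.153 CPM, so neither is among the 182.

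**Figure D1:**
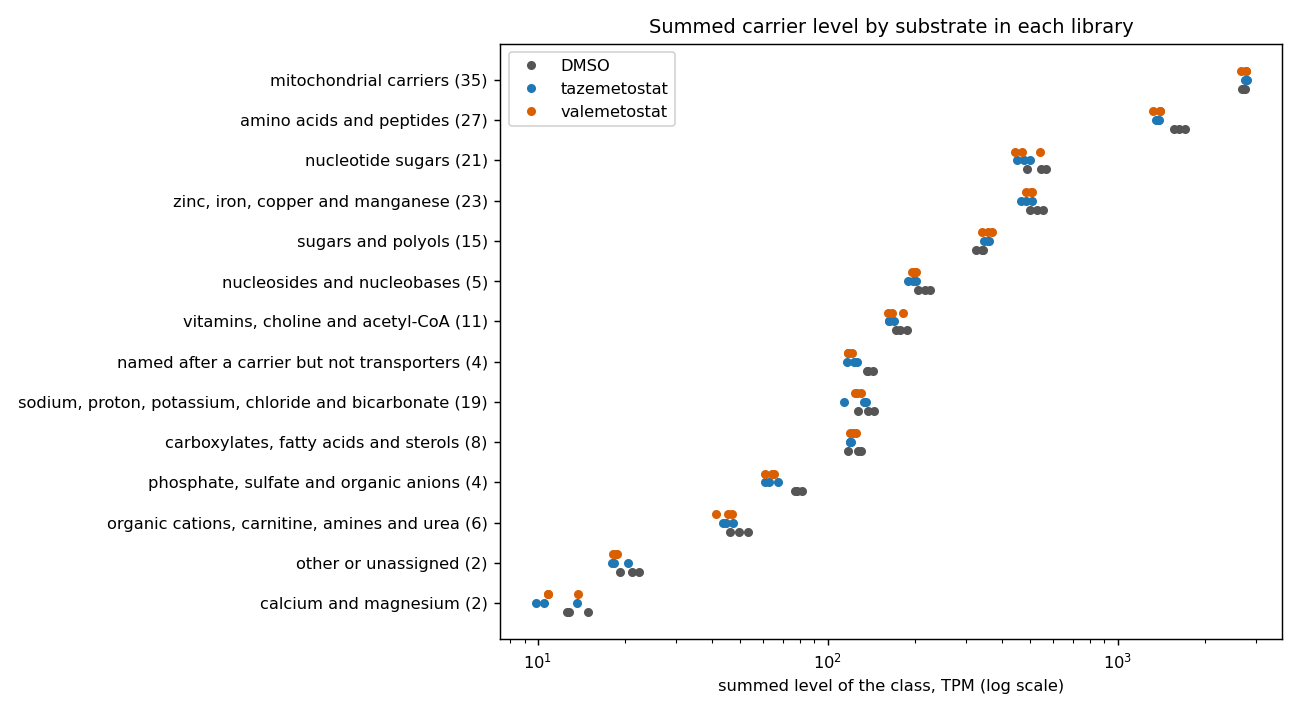
Summed level of the carriers of each substrate class in each library, in TPM on a log scale, with the number of genes in parentheses; each point is a library. The amino acid and peptide carriers lie at 1562 to 1706 TPM in DMSO and at 1322 to 1398 TPM in the 6 inhibitor libraries. The nucleoside class, the phosphate and organic anion class and the genes that are not transporters also lie lower in every inhibitor library. The mitochondrial carriers overlap between the groups.

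With tazemetostat 68 of the 182 carriers were called at an edgeR adjusted p under 0.05, which is 37.4%, against 38.1% of all 12580 genes tested and 40.1% of those at a mean of at least 1 CPM. Of these 29 were higher (19.9% of all genes were) and 39 lower (18.2% of all genes). With valemetostat 75 were called, or 41.2% against 39.2% of all genes and 41.3% of those at 1 CPM or more, with 36 higher (background 20.5%) and 39 lower (background 18.7%). The shares of carriers called are thus near those of all genes. The groups did not overlap in 91 carriers with tazemetostat (50%, background 47.4%, or 49.2% at 1 CPM or more) and in 93 with valemetostat (51.1%, background 48.5%, or 50.4%). The median log2 fold change of the carriers was -0.05 with tazemetostat and -0.02 with valemetostat, beside 0.00 and 0.01 over all genes. Both comparisons use the same DMSO libraries. A change of at least 2-fold was called for 6 carriers with each inhibitor, all of them higher, where 5.53% of all genes rose that far with tazemetostat and 5.37% with valemetostat (3.65% and 3.62% of those at 1 CPM or more), and 0 carriers fell 2-fold (background 0.874% and 1.08%). Among the 178 carriers with a DMSO mean of at least 1 CPM the 2-fold rises were 3 with each inhibitor. Of these 178, 26 were called higher and 39 lower with tazemetostat (36.5% called), and 32 and 39 with valemetostat (39.9% called). With both the unit and the test changed, on the deposited log2(TPM + 1) values, limma called 15 higher and 38 lower with tazemetostat and 17 and 39 with valemetostat.

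**Figure D2:**
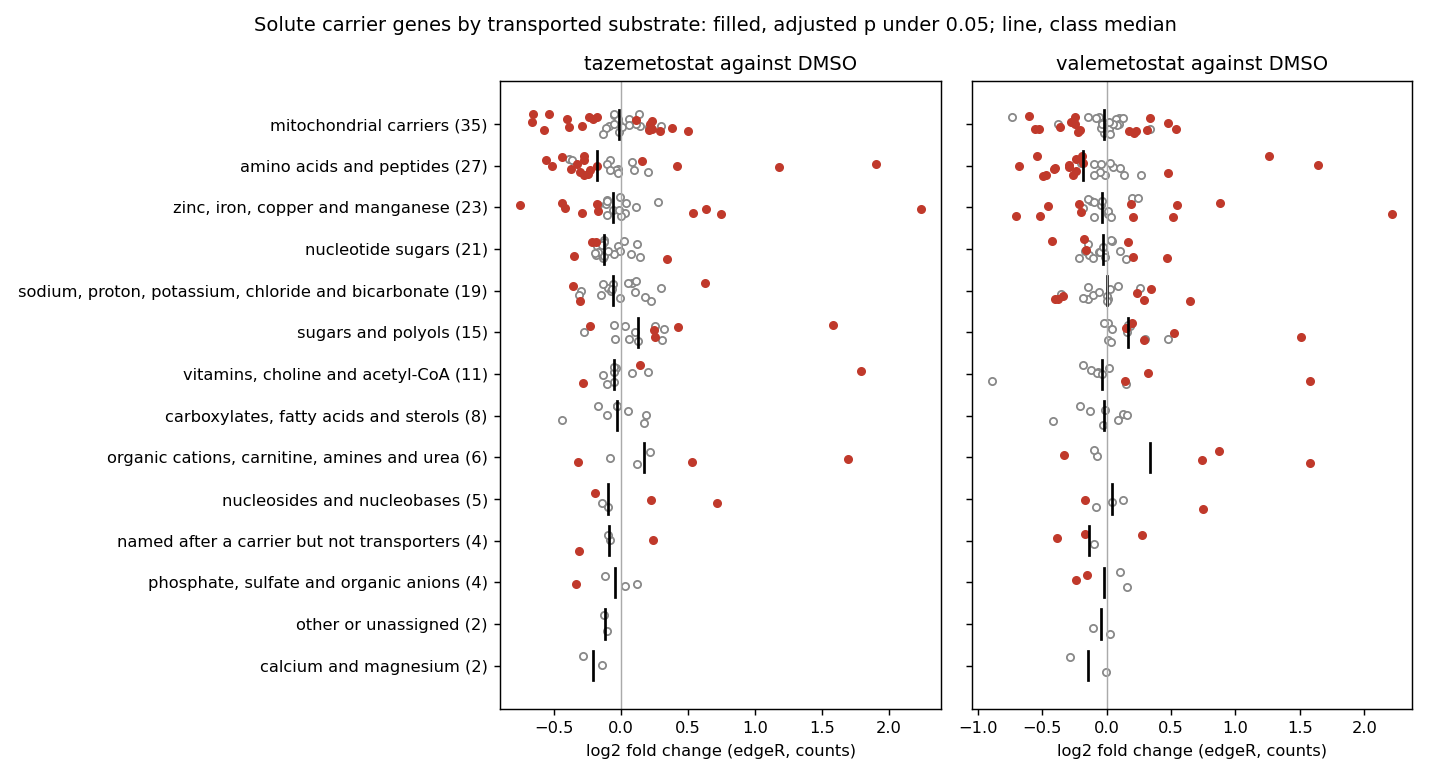
Log2 fold change against DMSO (horizontal axis) of each of the 182 carrier genes, by transported substrate, for tazemetostat (left) and valemetostat (right); filled points passed an adjusted p of 0.05, open points did not, and the line is the class median. Most points lie within 1 log2 unit of 0, the amino acid carriers lie mostly left of 0 (median -0.18 in both panels), and the 6 genes beyond 1 are all higher.

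The amino acid and peptide carriers moved mostly downward. Of 27 members 12 fell and 4 rose with tazemetostat, and 13 fell and 3 rose with valemetostat (59.3% called each time, beside 38.1% and 39.2% of all genes). Their median log2 change was -0.18 each time. Their summed level was 1629, 1706 and 1562 TPM in DMSO, 1380, 1384 and 1354 TPM with tazemetostat and 1398, 1395 and 1322 TPM with valemetostat. Every inhibitor library was thus below every DMSO library. The same held for all carriers together, at 6471 to 6890 TPM in DMSO and 6245 to 6368 TPM with the inhibitors. It also held for the carriers of nucleosides and for those of phosphate and organic anions. The genes that are not transporters were separate too (137 to 143 and 117 to 126 TPM). On the log2(TPM + 1) values the median change of all genes was -0.07 with each inhibitor. The amino acid carriers had long transcripts, with a median length of 1.26 relative to the median of all genes tested. Log2 changes declined with length across genes at a mean log2 CPM of at least 3 that changed by less than 2-fold. For these genes Spearman's rho was -0.37 with tazemetostat and -0.43 with valemetostat. With an offset for length in the fit 13 fell and 4 rose with tazemetostat, and 12 fell and 4 rose with valemetostat, and the class median moved to -0.12 for each.

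Slc7a5, the light chain that carries leucine and other large neutral amino acids, was at 763, 763 and 736 CPM in DMSO, 644, 669 and 684 with tazemetostat and 674, 694 and 623 with valemetostat. The groups did not overlap, and the fall was small, -0.18 ± 0.04 on the log2 scale (SE) with either inhibitor (edgeR adjusted p = 0.00238 and 0.00185). Its partner Slc3a2, the heavy chain that holds this and other light chains at the membrane, gave 412, 387 and 401 CPM with DMSO, 364, 369 and 399 with tazemetostat and 384, 409 and 370 with valemetostat. These groups overlapped, and Slc3a2 passed the test with neither inhibitor in the counts (log2 change -0.08 ± 0.05 and -0.05 ± 0.05, adjusted p = 0.161 and 0.473). On the log2(TPM + 1) values limma did call it lower, by -0.17 and -0.15 (adjusted p = 0.0141 and 0.0219).

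Among carriers of small neutral amino acids, glutamine among them, both small neutral exchangers (Slc1a4 and Slc1a5) and 4 of 6 sodium-coupled Slc38 carriers fell with each inhibitor, and 0 of 2 proton-coupled Slc36 carriers were called. Those not called were Slc38a10 (-0.04 and 0.03), Slc38a9 (-0.37 and -0.20), Slc36a1 (0.20 and 0.26) and Slc36a4 (0.10 and 0.10). Slc38a2, a sodium-coupled carrier that responds to amino acid shortage, was at 560, 601 and 567 CPM in DMSO, 461, 452 and 466 with tazemetostat and 497, 484 and 482 with valemetostat, a log2 change of -0.33 ± 0.04 and -0.24 ± 0.04 (adjusted p = 7.82e-07 and 5.22e-05). Slc1a5, the exchanger that brings in glutamine, was at 220, 209 and 194 CPM in DMSO and at 171 to 179 CPM in all 6 inhibitor libraries, with a change of -0.24 ± 0.05 for both (adjusted p = 0.000166 and 0.000191). In Slc38a2 and Slc1a5 the DMSO libraries lie above all others. Slc1a4, its relative for alanine, serine and cysteine, changed by -0.37 and -0.29, Slc38a1 by -0.23 and -0.30, and Slc38a6 by -0.28 and -0.40 with tazemetostat and valemetostat.

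Slc38a7, a lysosomal glutamine and asparagine carrier, had the largest relative fall of the class with tazemetostat. It was at 54.5, 56.2 and 53.0 CPM in DMSO, 36.6, 37.8 and 36.4 with tazemetostat and 37.5, 37.2 and 37.8 with valemetostat, so replicates differed by far less than the groups. The log2 change was -0.56 ± 0.06 and -0.54 ± 0.06 (adjusted p = 3.56e-08 and 6.81e-08). The glycine carrier Slc6a9 went from 55.4, 46.1 and 45.2 CPM to 32.8, 33.2 and 37.1 with tazemetostat and 35.2, 35.2 and 33.8 with valemetostat, a change of -0.51 ± 0.07 and -0.50 ± 0.08. Among carriers of cationic amino acids, Slc7a1, the main arginine importer, changed by -0.31 ± 0.05 and -0.41 ± 0.05 and Slc7a6 by -0.27 and -0.26, while its relative Slc7a3 did not pass the test (-0.02 and 0.14). Slc43a2, a facilitative carrier of branched-chain and aromatic amino acids, fell by 0.44 and 0.47 on the log2 scale. The taurine carrier Slc6a6 fell by 0.27 and 0.19, and its valemetostat call was lost with the length offset, on log2(TPM + 1) values and without DMSO library 2 (adjusted p up to 0.351). The tazemetostat call of Slc7a6 was lost on log2(TPM + 1) values (limma adjusted p = 0.0866).

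Against this direction, Slc1a3, the glutamate and aspartate carrier best known from glia, rose. It was at 8.01, 8.35 and 8.52 CPM in DMSO, 19.3, 19.3 and 17.6 with tazemetostat and 17.8, 20.4 and 21.2 with valemetostat, a log2 change of 1.18 ± 0.10 and 1.26 ± 0.10 (adjusted p = 4.20e-10 and 1.38e-10). The lowest inhibitor library was above every DMSO library by a wide margin. Slc6a13, a GABA carrier, rose by 0.42 ± 0.13 and 0.47 ± 0.13 (adjusted p = 0.0153 and 0.00625) in the counts but not on the log2(TPM + 1) values, with limma adjusted p = 0.125 and 0.0705. Leaving out tazemetostat library 2 also ended the call with that inhibitor.

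The oligopeptide carriers of the Slc15 family differed among themselves. Slc15a1, the peptide carrier of the gut, was low in DMSO at 0.527, 0.377 and 0.308 CPM and was at 0.848, 1.77 and 2.02 CPM with tazemetostat and 1.15, 1.77 and 0.947 CPM with valemetostat. This is a log2 change of 1.90 ± 0.42 and 1.64 ± 0.43 (adjusted p = 0.000886 and 0.00332; limma on log2(TPM + 1) values gave 0.0528 for valemetostat), at levels where 3 counts amount to 0.0643 to 0.0880 CPM. Slc15a1 reached the limit of 1 CPM through the inhibitor libraries, so that its groups had to lie apart to some degree. Slc15a2 went the other way, from 5.90, 6.29 and 5.92 CPM to 5.26, 3.87 and 4.69 with tazemetostat and 2.73, 4.23 and 4.36 with valemetostat, and passed the test with valemetostat (-0.68 ± 0.18, adjusted p = 0.00349) and not with tazemetostat (-0.39 ± 0.17, adjusted p = 0.0828). The endolysosomal Slc15a3, the most abundant of the family at 121 TPM, rose slightly with tazemetostat (0.16 ± 0.04, adjusted p = 0.00421), a call that was not made on the log2(TPM + 1) values (limma adjusted p = 0.292). Slc15a4, which supports endosomal Toll-like receptor signalling in B cells, passed with neither (-0.02 and -0.09).

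**Figure D3:**
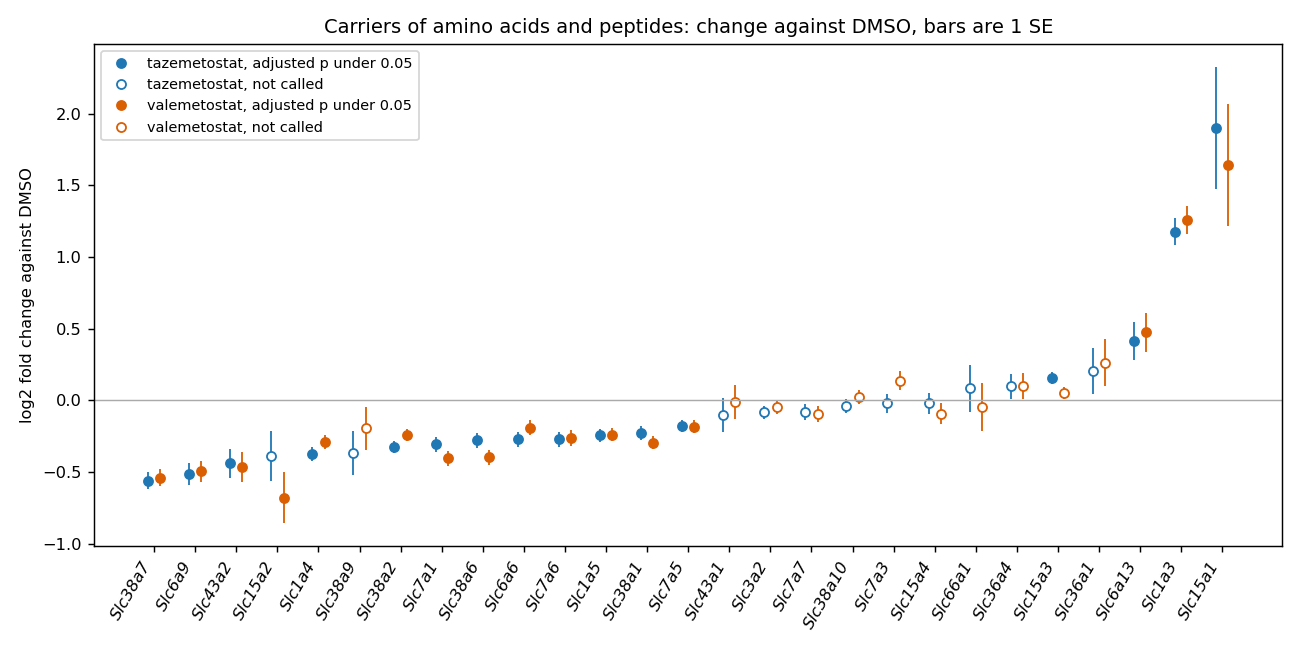
Log2 fold change against DMSO with its standard error for the 27 carriers of amino acids and peptides, ordered by the change with tazemetostat; filled points passed an adjusted p of 0.05. The fallen carriers lie between -0.68 and -0.18, and Slc1a3 and Slc15a1 are the members above 1. Of these Slc15a1 is among the carriers only through its level in the inhibitor libraries.

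Beside these carriers stand genes of the amino acid response and of mTORC1, a list of 24 of which 23 were tested. With each inhibitor 11 fell and 4 rose (65.2% called, beside 38.1% and 39.2% of all genes). The stress-response genes Sesn2, which restrains mTORC1 when leucine is short, Chac1 and Trib3 fell by 0.42, 0.33 and 0.41 on the log2 scale with tazemetostat and by 0.39, 0.36 and 0.21 with valemetostat. The transcription factor Atf4, which drives many amino acid carriers, was at 574 ± 16.3 CPM in DMSO, 523 ± 16.2 with tazemetostat and 520 ± 28.6 with valemetostat (SD, n = 3), a change of -0.14 ± 0.05 with both (adjusted p = 0.0193 and 0.0131). Mtor itself changed by -0.38 ± 0.06 and -0.36 ± 0.06. Castor1, an arginine sensor that inhibits mTORC1, rose from 3.48 ± 0.269 CPM to 7.23 ± 0.778 and 7.45 ± 1.22. Cth also rose, by 0.29 and 0.31 on the log2 scale, and Rragd by 0.53 and 0.41. Asns had 2 counts in all 9 libraries and could not be tested.

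Among carriers of zinc, iron, copper and manganese the changes went both ways. Of 23 members 4 were called higher and 6 lower for tazemetostat, against 6 and 5 for valemetostat (43.5% and 47.8% called, beside 38.1% and 39.2% of all genes). Their summed level was 526 ± 26.1 TPM in DMSO, 484 ± 21.1 with tazemetostat and 497 ± 13.7 with valemetostat (SD, n = 3). The largest change of any of the 182 carriers was that of Slc39a8, a ZIP protein that brings zinc, manganese and iron into the cytosol. Its level was 1.33, 1.28 and 1.01 CPM in DMSO, 6.41, 5.36 and 5.39 with tazemetostat and 5.00, 7.01 and 4.93 with valemetostat. No inhibitor library came near the DMSO range, and the log2 change was 2.24 ± 0.20 and 2.22 ± 0.20 (adjusted p = 1.82e-09 and 2.31e-09).

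Other zinc carriers moved less, and both ways. Of 11 carriers of zinc into the cytosol 2 were called higher and 2 lower for tazemetostat, against 3 and 2 for valemetostat. Of all genes 38.1% and 39.2% were called. Slc39a14 and Slc39a9 were lower with both. On log2(TPM + 1) values they changed by -0.36 and -0.27 with tazemetostat, and by -0.21 and -0.27 with valemetostat. There limma did not call Slc39a14 with valemetostat (adjusted p = 0.0973). Both Slc39a9 calls were lost with the length offset. Slc39a10, a ZIP importer needed for B cell development and signalling, went from 62.9, 68.2 and 69.6 CPM to 95.8, 102 and 94.6 with tazemetostat and 95.9, 92.5 and 97.9 with valemetostat, a log2 change of 0.54 ± 0.05 and 0.51 ± 0.05 (adjusted p = 9.65e-09 and 2.44e-08). Slc30a4, which moves zinc out of the cytosol into vesicles, rose by 0.63 ± 0.06 and 0.55 ± 0.06. Slc30a1, the zinc exporter of the plasma membrane, fell: it was at 28.4, 23.9 and 26.2 CPM in DMSO, 20, 18.5 and 19.4 with tazemetostat and 19.2, 18.4 and 17.4 with valemetostat (-0.44 ± 0.08 and -0.51 ± 0.08, adjusted p = 0.000136 and 2.05e-05). The abundant Slc39a7, Slc39a1 and Slc39a6, at 38.7 to 66.2 TPM, passed the test with neither inhibitor.

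Of the carriers of iron, Slc11a1 moved against Slc39a8, and so did the haem carrier Slc48a1. Slc11a1, the NRAMP carrier that removes iron and manganese from phagosomes, was at 14.4, 14.1 and 16.4 CPM in DMSO, 8.45, 9.53 and 8.74 with tazemetostat and 8.06, 9.25 and 10.2 with valemetostat, a change of -0.75 ± 0.11 and -0.71 ± 0.11 (adjusted p = 9.49e-06 and 2.08e-05). It is best known from macrophages, and the summed myeloid markers were at 30.0 to 33.3 CPM in DMSO, 29.6 to 33.7 with tazemetostat and 27.6 to 30.9 with valemetostat. Of the 4 myeloid markers tested 2 rose at least 2-fold (Lyz2 and Adgre1) and 1 fell (Csf1r) with each inhibitor. Their part in the fall of Slc11a1 was not tested. On log2(TPM + 1) values that fall was larger, -1.14 and -1.21. Slc48a1, which releases haem from endosomes, was at 50.7 ± 0.994 CPM in DMSO (SD, n = 3) and changed by -0.42 ± 0.06 and -0.46 ± 0.07. Slc11a2, the relative of Slc11a1 that moves transferrin-borne iron out of endosomes, did not pass (-0.06 and -0.18, adjusted p = 0.553 and 0.0588).

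The mitoferrins, which bring iron into mitochondria for haem and iron-sulfur clusters, fell as well. Slc25a37 went from 55.9, 59.7 and 48.3 CPM to 41.4, 37.4 and 34.3 with tazemetostat and 36.4, 33.4 and 38.2 with valemetostat, and Slc25a28 from 25.8, 26.1 and 20.9 CPM to 15.7, 15.6 and 15.03 and to 14.4, 17.4 and 18.8. For both genes all DMSO libraries were above all inhibitor libraries. The log2 changes were -0.53 ± 0.08 and -0.60 ± 0.08 for Slc25a37 and -0.65 ± 0.10 and -0.53 ± 0.10 for Slc25a28, with adjusted p between 1.52e-06 and 0.000145. In the list of metal-handling genes, 4 of 16 tested rose and 6 fell with each inhibitor (62.5% called, beside 38.1% and 39.2% of all genes). The ferritin heavy chain gene Fth1 was at 960 ± 68.7 CPM in DMSO, 731 ± 21.1 with tazemetostat and 703 ± 33.5 with valemetostat (SD, n = 3), and Hmox1, which breaks down haem, fell by 0.58 and 0.51 on the log2 scale. The transferrin receptor gene Tfrc fell by 0.16 and 0.24, the iron-responsive regulator Aco1 rose by 0.37 and 0.35, and the metallothionein gene Mt2 rose by 0.86 and 0.79.

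Of the 2 copper carriers, 1 was called higher with tazemetostat and both were with valemetostat. Slc31a2, which acts on copper in endosomes and lysosomes, was at 12.7, 13.4 and 12.1 CPM in DMSO, 21.1, 22.4 and 20.7 with tazemetostat and 23.1, 23.9 and 23.3 with valemetostat, a change of 0.75 ± 0.08 and 0.88 ± 0.08 (adjusted p = 7.50e-08 and 4.55e-09). The groups lay far apart relative to their spread. Slc31a1, the copper importer of the plasma membrane, passed with valemetostat (0.19 ± 0.05, adjusted p = 0.00184) and not with tazemetostat (0.11 ± 0.05, adjusted p = 0.0509), and on log2(TPM + 1) values it passed with neither.

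**Figure D4:**
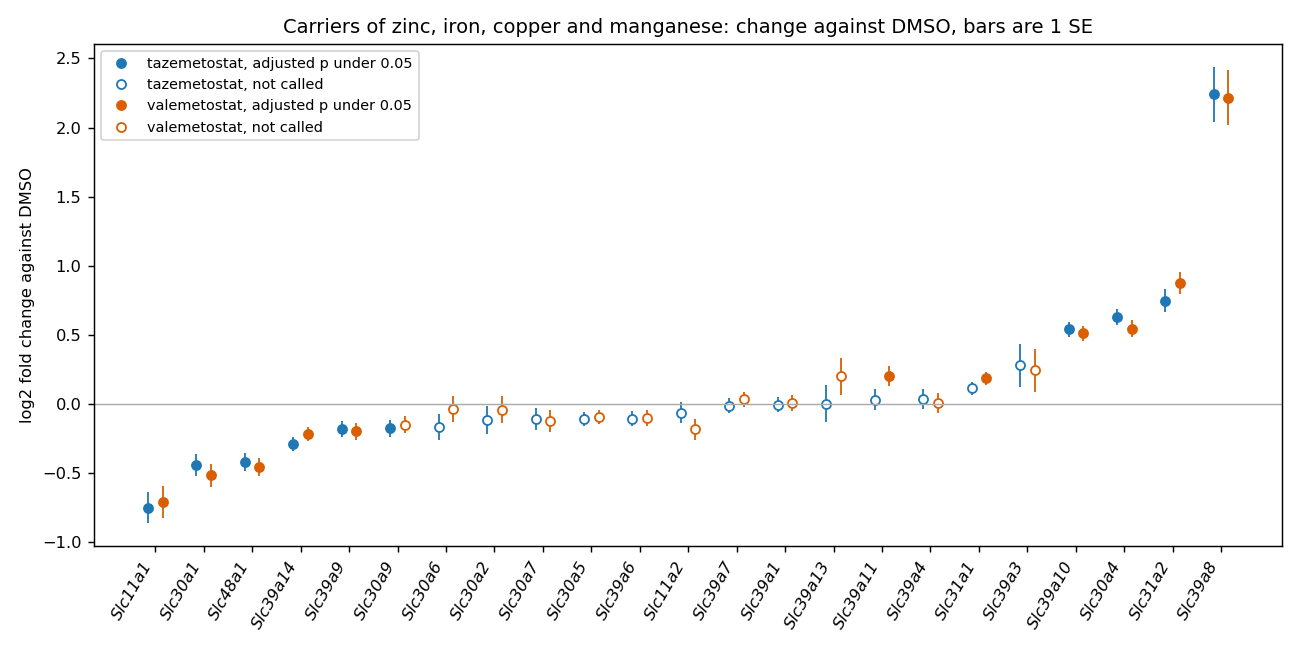
Log2 fold change against DMSO with its standard error for the 23 carriers of zinc, iron, copper and manganese, ordered by the change with tazemetostat; filled points passed an adjusted p of 0.05. Slc39a8 stands above 2, Slc31a2, Slc30a4 and Slc39a10 lie between 0.51 and 0.88, and Slc11a1 is lowest at -0.75 and -0.71.

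The mitochondrial carriers were balanced. Of 35 members 8 were called higher and 10 lower for tazemetostat, against 7 and 9 for valemetostat (51.4% and 45.7% called, beside 38.1% and 39.2% of all genes). Their summed level was 2714 TPM in DMSO, 2767 with tazemetostat and 2737 with valemetostat. The ADP/ATP carriers, which export ATP from the matrix, rose slightly: Slc25a5 was at 667, 642 and 670 CPM in DMSO, 745, 759 and 819 with tazemetostat and 781, 789 and 724 with valemetostat (0.23 ± 0.05 and 0.21 ± 0.05, adjusted p = 0.000257 and 0.000568), and Slc25a4 changed by 0.23 ± 0.05 with both. They are close relatives, and reads shared between them or with processed copies cannot be told apart here. Slc25a11, the oxoglutarate and malate carrier of the malate-aspartate shuttle, went from 50.1, 50.9 and 53.1 CPM to 71.6, 68.8 and 77.3 and to 65.4, 74.9 and 73.6 (0.50 ± 0.06 and 0.47 ± 0.06, adjusted p = 4.34e-07 and 9.41e-07). Slc25a15, the ornithine carrier of the urea cycle, rose by 0.38 ± 0.08 and 0.54 ± 0.08.

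The fallen mitochondrial carriers were mostly carriers of nucleotides and cofactors, beside the mitoferrins. Slc25a36, which exchanges pyrimidine nucleotides, went from 34.0, 36.2 and 33.4 CPM to 25.04, 23.9 and 20.7 and to 25.2, 23.1 and 22.03 (-0.57 ± 0.08 and -0.56 ± 0.08), and its relative Slc25a33 fell by 0.29 and 0.20 on the log2 scale. The valemetostat call of Slc25a33 was lost without DMSO library 1, valemetostat library 1 or valemetostat library 3 (adjusted p up to 0.0684). Slc25a51, the NAD carrier, changed by -0.20 and -0.24. Slc25a3, the phosphate carrier, was called with tazemetostat at the edge of the threshold (0.11 ± 0.05, adjusted p = 0.0478), and leaving out any tazemetostat library, or DMSO library 1 or 2, ended the call.

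Sugar carriers that passed were higher, apart from Slc37a3 with tazemetostat, a call lost in 9 of 15 alternatives, those without DMSO library 1 or 2 and without tazemetostat library 1 or 2 among them (adjusted p up to 0.227). Of 15 members 4 were called higher and 1 lower for tazemetostat, against 5 and 0 for valemetostat (33.3% called each time, beside 38.1% and 39.2% of all genes). On log2(TPM + 1) values only 1 and 2 of them were called. Slc2a4, the insulin-responsive glucose carrier of muscle and fat, rose most: it was at 2.45, 2.32 and 1.60 CPM in DMSO, 5.39, 6.75 and 7.08 with tazemetostat and 5.28, 5.97 and 6.96 with valemetostat (1.58 ± 0.18 and 1.51 ± 0.19, adjusted p = 1.75e-07 and 3.95e-07). The abundant glucose carriers changed little. Slc2a1, the carrier used by most growing cells, was at 111, 115 and 116 CPM in DMSO, 142, 130 and 134 with tazemetostat and 140, 131 and 148 with valemetostat (0.25 ± 0.05 and 0.29 ± 0.05), with a limma adjusted p of 0.0790 for tazemetostat on log2(TPM + 1) values. Slc2a3, a high-affinity glucose carrier, changed by 0.26 ± 0.04 and 0.15 ± 0.04, but on log2(TPM + 1) values limma gave adjusted p = 0.236 and 0.305. The 8 carriers of carboxylates, fatty acids and sterols had 0 calls with either inhibitor in the main edgeR fit (1 at an unadjusted p under 0.05 with tazemetostat and 0 with valemetostat). With the length offset 1 of them was called higher with each inhibitor, and limma on log2(TPM + 1) values called 1 lower with each. Slc16a1 was at 244, 258 and 243 CPM in DMSO and at 247 to 270 CPM with the inhibitors.

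The ion carriers held a single large change. Slc12a2, the sodium, potassium and chloride cotransporter that restores cell volume, was at 53.2, 49.5 and 47.3 CPM in DMSO, 76.6, 80.9 and 74.9 with tazemetostat and 79.3, 76.8 and 78.5 with valemetostat, a change of 0.63 ± 0.06 and 0.64 ± 0.06 (adjusted p = 1.82e-09 and 1.31e-09). Of the 19 carriers of sodium, protons, potassium, chloride and bicarbonate, 1 was called higher and 2 lower for tazemetostat, against 4 and 3 for valemetostat. These are 15.8% and 36.8% called, beside 38.1% and 39.2% of all genes. Slc9a8, a sodium and proton exchanger of the Golgi, fell by 0.31 and 0.38 and Slc12a9 by 0.36 and 0.34 on the log2 scale. Slc4a7, a sodium bicarbonate carrier, passed with valemetostat (0.29 ± 0.06, adjusted p = 0.000392, but 0.145 by limma on log2(TPM + 1) values) and not with tazemetostat (0.12 ± 0.06, adjusted p = 0.141). The exchanger Slc4a2, which moves chloride and bicarbonate, passed with neither (-0.06 and 0.03).

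Among regulators and partners of carriers, 7 of 14 tested genes were called higher and 0 lower for tazemetostat, against 8 and 2 for valemetostat. These are 50% and 71.4% called, beside 38.1% and 39.2% of all genes. Sgk1, a kinase that keeps several carriers at the membrane, rose from 1.88 ± 0.0779 CPM to 11.2 ± 0.251 with tazemetostat and 7.23 ± 0.693 with valemetostat (SD, n = 3). It was the only gene of the related lists called between the inhibitors (-0.63 ± 0.13 for valemetostat against tazemetostat, adjusted p = 0.0244). Bsg, the chaperone of lactate carriers, rose by 0.24 and 0.28, and Mpc1, a subunit of the mitochondrial pyruvate carrier outside the carrier nomenclature used here, by 0.33 and 0.34.

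Smaller groups gave a few clear cases. Slc28a2, a concentrative carrier of purine nucleosides, was at 12.2, 12.5 and 13.1 CPM in DMSO, 21.9, 20.1 and 20.1 with tazemetostat and 21.6, 20.6 and 21.3 with valemetostat (0.72 ± 0.08 and 0.75 ± 0.08, adjusted p = 2.03e-07 and 1.01e-07), while the equilibrative Slc29a1 fell by 0.19 and 0.17. The urea carrier Slc14a1 rose from 0.801, 0.986 and 1.07 CPM to 2.93, 3.42 and 2.84 and to 2.40, 2.72 and 3.36 (1.69 ± 0.25 and 1.58 ± 0.25). The riboflavin carrier Slc52a3 rose from 0.548, 0.319 and 0.449 CPM to 1.85, 1.05 and 1.74 and to 1.20, 1.48 and 1.33 (1.79 ± 0.38 and 1.58 ± 0.39), and the more abundant riboflavin carrier Slc52a2 fell with tazemetostat (-0.28 ± 0.08, adjusted p = 0.00581). Slc14a1 and Slc52a3 had a DMSO mean under 1 CPM and reached the limit through the inhibitor libraries, so that their groups had to lie apart to some degree. The reduced folate carrier Slc19a1 and the choline carrier Slc44a2 passed with neither inhibitor. Slc20a2, a phosphate importer, fell by 0.34 and 0.24, and the carnitine carrier Slc22a5 by 0.32 and 0.33. Some of these calls with valemetostat rested on single libraries: that of Slc20a2 was lost without DMSO library 2, valemetostat library 2 or valemetostat library 3 (adjusted p up to 0.0912), that of Slc29a1 without DMSO library 1 or valemetostat library 3 (up to 0.0657), and that of Slc22a5 without valemetostat library 2 (0.0502). The tazemetostat call of Slc52a2 was lost on log2(TPM + 1) values and without tazemetostat library 1 (up to 0.0618). Of 21 genes in the nucleotide sugar family Slc35, 1 was called higher and 3 lower for tazemetostat, against 3 and 3 for valemetostat. These are 19% and 28.6% called, beside 38.1% and 39.2% of all genes. Slc35e2, whose substrate is not assigned here, fell by 0.35 and 0.43.

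**Figure D5:**
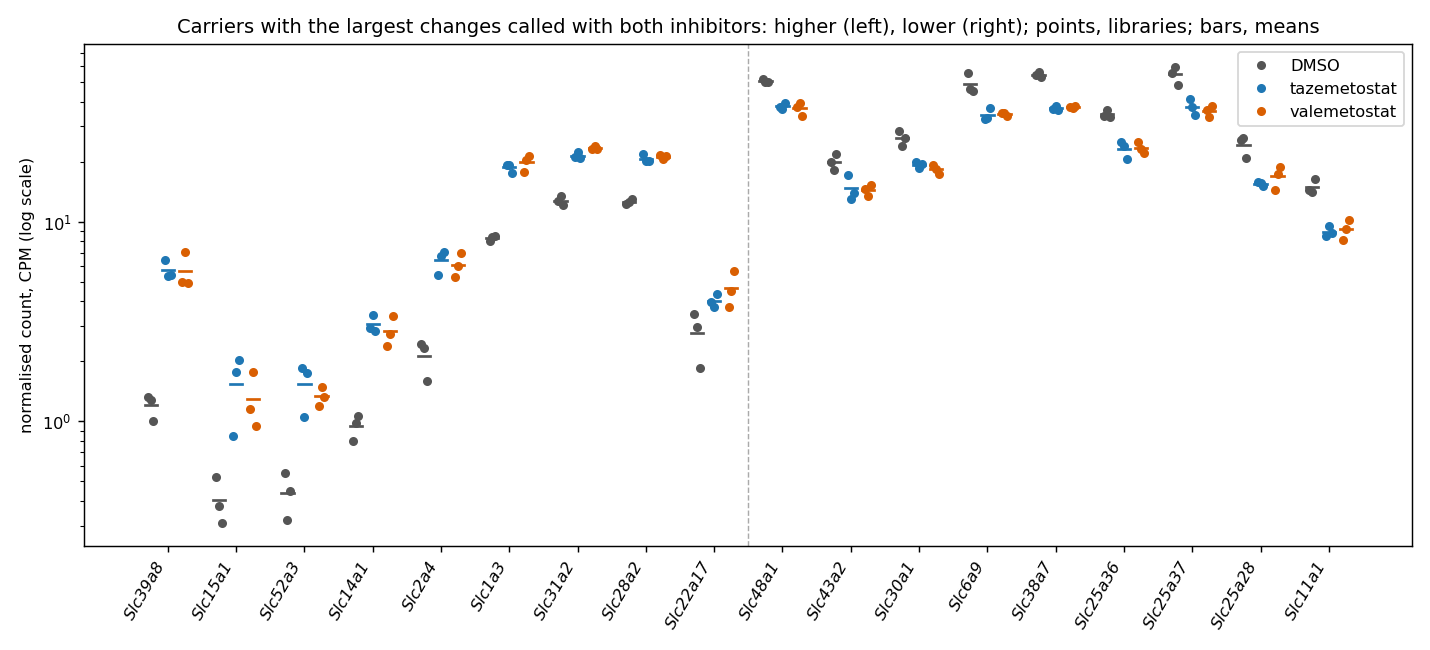
Normalised counts (CPM, log scale) in each library for the 9 carriers with the largest rise and the 9 with the largest fall among those called with both inhibitors, ordered by the mean change; points are libraries and bars are group means. On the left Slc39a8 goes from 1.01 to 1.33 CPM in DMSO to 4.93 to 7.01 CPM with the inhibitors, and the falls on the right are smaller in proportion.

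The inhibitors were also compared with each other. Of the 182 carriers 0 were called between valemetostat and tazemetostat by edgeR, where 0.318% of all genes were, and 12 had an unadjusted p under 0.05. DESeq2 called 1 carrier, and so did edgeR without tazemetostat library 3. For 160 of the 182 carriers the 95% interval of the difference lay within 0.5 log2 units of 0. It was -0.38 to 0.34 for Slc39a8, -0.11 to 0.27 for Slc1a3, -0.43 to 0.27 for Slc2a4 and -0.10 to 0.09 for Slc7a5. For low genes it was wide, -1.06 to 0.54 for Slc15a1 and -0.05 to 1.36 for Slc22a18, so the call of Slc22a18 with valemetostat alone (0.88 ± 0.35, adjusted p = 0.0469), which was lost in 10 of its 15 alternatives, shows no difference between the compounds.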

How the data were processed

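RNA from 9 libraries was analysed, 3 per group. The libraries came from poly(A) RNA primed with random hexamers and were read from both ends, per the labels' protocols. The authors deposited whole-number counts per gene and library, and log2 values that are log2(TPM + 1), with TPM in whole hundredths in 100% of values (tolerance 1e-04). Per the submitters' processing notes, mm9 was the genome build. The aligner, the counting program, the annotation and whether strand was used were not given in the sources used here. Overlapping or antisense neighbours (Slc7a6 and Slc7a6os) and near copies therefore cannot be separated.

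The counts were tested with edgeR 4.0.16 in R 4.3.3 (TMM, robust quasi-likelihood F test, 3 groups in 1 fit). The filter (minimum count 10, minimum total 15) kept 12580 genes. A call is a Benjamini-Hochberg adjusted p under 0.05 over all genes tested. Values by library are TMM-scaled CPM, except for the 1 CPM limit, and errors of log2 changes are standard errors. Depth of 34080504 to 46675110 counts puts 3 counts at 0.0643 to 0.0880 CPM, and floors and intervals of count ratios cover counting error only. The 95% intervals between inhibitors come from edgeR standard errors, which include variation among libraries. Relative transcript length is the ratio of counts to TPM. The code was tested on simulated data.

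The fit was repeated with library totals, with median-ratio size factors, without the filter, with DESeq2 1.42.0, with at least 1 CPM in 3 libraries, with limma 3.58.1 (limma-trend) on the log2 values, a replicate block, the compared groups alone, a length offset (spline with 5 degrees of freedom), each library left out, and other limits on the carriers' level. Replicates of a group differed by more than sampling noise in each pair (chi-square per degree of freedom 5.28 to 13.7).

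The carriers, gene lists and tests were chosen with earlier results of these data known. Substrate classes were assigned by hand by family, and a few families were moved after the table was seen. The rule for named genes took a set of well-known carriers, for each inhibitor the 10 called carriers with the largest change in each direction whose groups do not overlap, the 2 highest by TPM and the 2 called with the smallest p in each class, the 3 on either side of the 1 CPM limit, and up to 2 called genes per related list and comparison. Other members of a class, other genes of the related lists, the low carriers and the 4 promoters were picked after their values were seen. Results for a few carriers are not reported here.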

Additional observations from a re-analysis of the deposited data

How the results depend on the processing

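Tested by limma-trend on log2(TPM + 1), 15 carriers were called higher with tazemetostat in place of 29, and 17 with valemetostat in place of 36. The amino acid and peptide carriers called higher went from 4 to 2 and from 3 to 1. The share of higher among called carriers fell from 42.6% to 28.3% and from 48% to 30.4%, and the cause was not tested. The counts of lower carriers, 39 with each inhibitor, stayed between 33 and 45 with tazemetostat and between 29 and 43 with valemetostat over all alternatives. Slc35b2, called higher with valemetostat in the counts, had a log2 change of -0.0497 there (adjusted p = 0.649). Between the inhibitors DESeq2 called 1 carrier higher, and leaving out 1 library in turn gave 0 to 1, the 1 without tazemetostat replicate 3. Of 68 calls with tazemetostat 43 held under all 15 alternatives, and of 75 with valemetostat 40. Leaving out a library gave 24 to 26 higher and 33 to 38 lower with tazemetostat, and 28 to 31 and 29 to 39 with valemetostat. Replicate numbers do not pair the libraries (correlations of deviations of same-numbered libraries -0.04 to 0.08), and the replicate block gave 26 higher and 36 lower with tazemetostat and 31 and 37 with valemetostat. Depth limits the low carriers: standard errors against DMSO reach 0.44 on the log2 scale among the 182 carriers, and 1.26 among those tested under 1 CPM.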

Other observations

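Other transporter families were measured beside the carriers. Of 31 ABC transporters tested, which use ATP to move lipids, drugs and peptides, 10 were called higher and 3 lower for tazemetostat, against 8 and 4 for valemetostat. These are 41.9% and 38.7% called, near the 38.1% and 39.2% of all genes. Abcg2, a drug and haem exporter, had 12, 13 and 10 counts in DMSO, 430, 401 and 293 with tazemetostat and 344, 271 and 355 with valemetostat, a log2 change of 4.90 ± 0.20 and 4.86 ± 0.21. It passed the count filter through the inhibitor libraries, so that its groups had to lie apart to some degree. Abca5, a lysosomal lipid transporter, rose from 13.7 ± 0.303 CPM to 48.9 ± 0.806 and 58.5 ± 1.40 (SD, n = 3). Of 14 Mfsd genes 0 rose and 3 fell with each inhibitor (21.4% called), Mfsd4a by 0.52 and 0.49 on the log2 scale. Of 12 calcium and sodium pumps and channels 4 were called higher and 2 lower for tazemetostat, against 3 and 2 for valemetostat (50% and 41.7% called). The calcium pump Atp2a3 rose by 0.57 and 0.64.

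Carriers under the mean of 1 CPM are given as counts. Some of the 34 that could be tested passed the filter through the inhibitor libraries alone, and others could pass it through DMSO alone, so their calls were not counted up. Slc4a10, a sodium bicarbonate carrier of neurons, had 0 counts in DMSO, 57 over the tazemetostat libraries and 35 over the valemetostat libraries, at least 17.6-fold and 12.3-fold higher against a floor of 3 counts over the DMSO group. Slc9b2, a sodium and proton exchanger, had 2 counts in DMSO, 147 with tazemetostat and 69 with valemetostat, a ratio of 68.1 (95% counting interval 18.5 to 568) and 36.2 (9.66 to 305). Slc38a4, an amino acid carrier of liver, had 3, 10 and 12 counts in DMSO, 56, 39 and 24 with tazemetostat and 45, 25 and 26 with valemetostat. Slc28a1, a pyrimidine nucleoside carrier, had 35, 26 and 17 counts in DMSO and 0, 8 and 5 with valemetostat, a log2 change of -2.43 ± 0.69. It was not called lower with tazemetostat.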
